A study of Mus musculus with 16 samples.

Results

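ADAMTS proteases are secreted zinc metalloproteases that cut the extracellular matrix, and 10 of their genes were followed here in the mouse heart: Adamts1, Adamts2, Adamts4, Adamts5, Adamts7, Adamts8, Adamts9, Adamts10, Adamts12 and Adamts15. They were chosen by gene symbol from the 22372 protein-coding genes of the table, with earlier results of these data known. Counts of members and of related genes beside the share of all genes therefore describe these lists and are not independent support. Each symbol matched exactly 1 Ensembl gene. RNA was sequenced from pieces of ventricle of 16 C57BL/6J mice, which were 10 to 12 weeks old when the experiment began. There were 4 groups of 4 mice, named TAC-THZ1, TAC-Veh, Sham-THZ1 and Sham-Veh. TAC (transverse aortic constriction) is surgery that narrows the aorta and puts the left ventricle under a pressure load, and sham mice had no constriction. THZ1, a covalent inhibitor of the transcriptional kinases CDK7, CDK12 and CDK13, was injected intraperitoneally from postoperative day 1 to day 60. Each dose was 10 mg/kg, with 2 doses a day. Vehicle mice had injections of the vehicle solution without THZ1. The comparisons ask which genes of the stressed ventricle differ when the inhibitor is given. The paper reports that THZ1 attenuated systolic dysfunction, hypertrophy and fibrosis after TAC. A change that follows from milder disease and one that follows from the kinases themselves therefore cannot be told apart. The inhibitor was given to the whole animal and the RNA came from whole tissue, so that a smaller number of cells of a type and less RNA per cell cannot be told apart.

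As background, an ADAMTS protease is made as an inactive precursor, is trimmed by proprotein convertases such as furin, and binds to the matrix or the cell surface through thrombospondin repeats and other domains behind its catalytic domain. The family splits by substrate. Adamts1, Adamts4, Adamts5, Adamts8, Adamts9 and Adamts15 cut hyaluronan-binding proteoglycans such as versican and aggrecan, Adamts2 removes the amino-terminal propeptide of fibrillar procollagens, Adamts7 and Adamts12 cut cartilage oligomeric matrix protein (COMP), and Adamts10 binds fibrillin and has little protease activity of its own. In the heart these substrates make up the provisional and fibrillar matrix that fibroblasts and vascular cells lay down.

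What the members share by sequence is the site at which 3 histidines hold the catalytic zinc. In the main fit that follows, the response to THZ1 was called different between TAC and sham hearts for 5 members, though not for all of them in every alternative fit. The 36 coding bases of the site are shown for these 5, with the histidine codons in capitals, 5′ to 3′ on the coding strand.
Adamts2: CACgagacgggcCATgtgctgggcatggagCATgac
Adamts4: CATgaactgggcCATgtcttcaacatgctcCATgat
Adamts7: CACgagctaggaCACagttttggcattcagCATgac
Adamts8: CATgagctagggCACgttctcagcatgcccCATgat
Adamts12: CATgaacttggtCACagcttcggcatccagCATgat
These bases were read from the GENCODE transcripts of build NCBIM37 (mm9). In every one of these 5 genes an intron splits the site. Intron included, the site lies in Adamts2 at chr11:50588905-50589639 on the plus strand in exons 7 and 8 of 22, Adamts4 at chr1:173183341-173184049 on the plus strand in exons 3 and 4 of 9, Adamts7 at chr9:90074294-90075481 on the plus strand in exons 7 and 8 of 24, Adamts8 at chr9:30760306-30760966 on the plus strand in exons 3 and 4 of 9 and Adamts12 at chr15:11171284-11185322 on the plus strand in exons 7 and 8 of 24. All 10 members held the site once, and 14 of its 36 positions carried the same base in all of them. Between pairs of members 20 to 32 of the 36 bases were identical, with a median of 23. The closest pair was Adamts4 and Adamts15 at 32, and Adamts7 and Adamts12, the COMP-cutting pair, had 28 in common.

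Upstream sequence from RefSeq (GRCm38.p6) was at hand for 4 of the 10 members, namely Adamts1, Adamts2, Adamts9 and Adamts12. The 250 bases before the start of Adamts2 (chr11:50601835-50602084, plus strand) and Adamts12 (chr15:11064523-11064772, plus strand) are shown because both genes rose with TAC and fell with THZ1 in TAC, with matches to the GC box GGGCGG on either strand in capitals.
Adamts2: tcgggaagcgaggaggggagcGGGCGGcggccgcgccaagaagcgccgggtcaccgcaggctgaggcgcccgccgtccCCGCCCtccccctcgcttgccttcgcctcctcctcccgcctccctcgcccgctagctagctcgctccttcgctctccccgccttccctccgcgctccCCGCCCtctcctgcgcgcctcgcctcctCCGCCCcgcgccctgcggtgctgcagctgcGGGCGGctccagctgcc
Adamts12: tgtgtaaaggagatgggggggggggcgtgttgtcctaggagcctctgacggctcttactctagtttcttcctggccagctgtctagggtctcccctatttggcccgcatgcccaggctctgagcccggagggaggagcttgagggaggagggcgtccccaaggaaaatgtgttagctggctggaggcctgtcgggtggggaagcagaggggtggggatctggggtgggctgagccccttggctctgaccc
The window of Adamts2 was 78.0% G and C and held 5 GC boxes, and that of Adamts12 was 63.2% G and C and held none. The median over 32851 promoters of the same length was 52.4%, and 32.7% of them held at least 1 GC box. Both windows held the E box CANNTG (2 matches and 1 match), as did 66.2% of all promoters. Neither held the AP-1 motif TGANTCA, the SMAD motif CAGACA, the TEAD motif CATTCC, the TATA box TATAAA or the CCAAT box, on either strand, which 6.75%, 17.1%, 12.6%, 12.4% and 33.9% of the promoters held. These matches describe letters only. Adamts1 had 3 GC boxes and 1 TATA box, and Adamts9 had 1 GC box.

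Depth was 21.4 to 35.8 M reads in genes per library, with a median of 28.2 M. A gene was tested if 4 or more libraries had 10 or more normalized counts of it, and all 10 members were among the 13331 genes that passed. The 8 cardiomyocyte markers were all present, with a summed normalized count of 1213700 to 1324520 in Sham-Veh and 591154 to 876249 in TAC-Veh. In TAC-THZ1 this sum was 1039220 to 1298460, above the TAC-Veh range. The 8 markers of activated fibroblasts summed to 32270 to 104441 in TAC-Veh, against 3828 to 10043 in TAC-THZ1, 2231 to 3274 in Sham-Veh and 2219 to 2574 in Sham-THZ1, and none was at 0. The 6 neutrophil markers reached 7132 in TAC-THZ1 replicate 1 against 214 to 3089 in the other libraries of that group. Their sum was 125 to 286 in TAC-Veh, 50.9 to 101 in Sham-Veh and 84.1 to 567 in Sham-THZ1. The part of these cell types in the results was not tested.

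Per kilobase of exon, the members spread over a wide range in unstressed hearts (Sham-Veh, n = 4, mean ± SD of normalized counts per kb). Adamts1 was the most abundant at 169 ± 37.6, followed by Adamts10 at 141 ± 13.6, Adamts7 at 123 ± 12.4 and Adamts5 at 122.7 ± 8.98, and the ranges of each of these neighbours overlapped. Adamts2 stood apart from them at 52.8 ± 4.50. Adamts9 at 36.2 ± 3.33 and Adamts15 at 29.3 ± 2.103 overlapped each other. The last 3 were Adamts12 at 4.14 ± 0.841, Adamts8 at 3.47 ± 0.696 and Adamts4 at 2.21 ± 0.703, of which Adamts12 and Adamts8 overlapped. Together the 4 most abundant members made up most of the summed level, with 24.7%, 20.6%, 17.99% and 17.95% of it.

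The order changed with pressure overload. In TAC-Veh, Adamts2 moved from the fifth to the third place with 170 ± 60.2 normalized counts per kb, Adamts8 from the ninth to the sixth with 38.7 ± 28.1, and Adamts7 dropped from the third to the seventh with 34.2 ± 15.4. The share of Adamts7 in the summed level went from 17.99% to 3.58% and that of Adamts2 from 7.72% to 17.7%. With THZ1 after TAC these shares were 12.0% for Adamts7 and 8.83% for Adamts2. The summed level per kb of the 10 members ran from 773 to 1119 in TAC-Veh, from 638 to 728 in TAC-THZ1, from 651 to 727 in Sham-Veh and from 745 to 775 in Sham-THZ1. The plot of levels per length shows the 3 rare members below 10 in sham hearts and the wide spread of the TAC-Veh libraries.

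**Figure D1:**
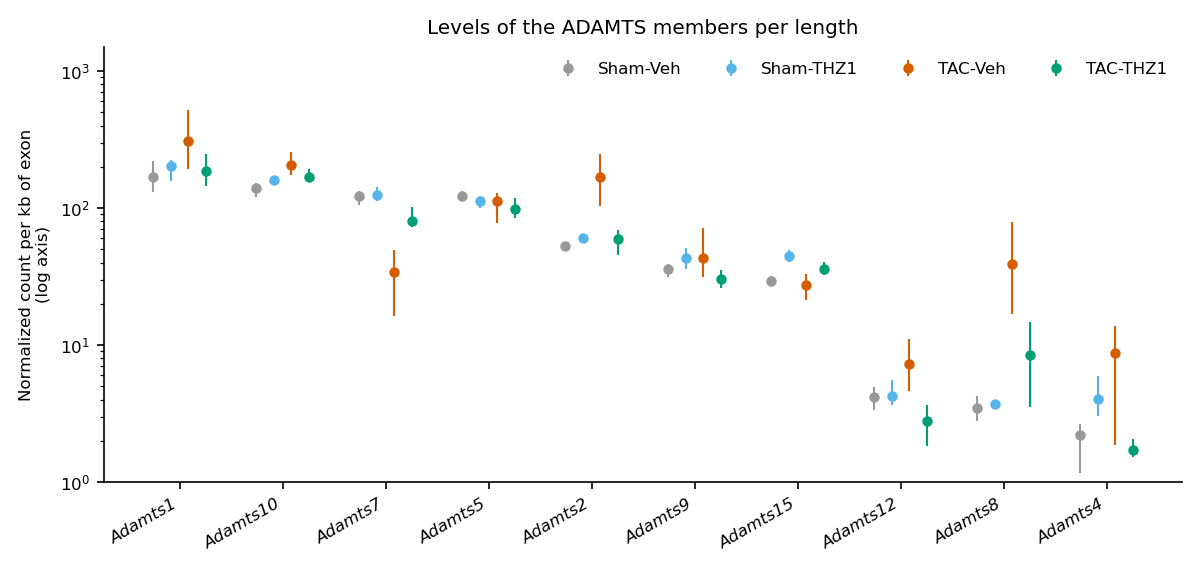
Normalized counts per kb of exon (log axis) of the 10 members, ordered by their level in Sham-Veh, with the mean of 4 libraries as a point and the lowest and highest library as the bar. Adamts7 is lower and Adamts2 and Adamts8 are higher in TAC-Veh than in the sham groups.

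Pressure overload raised 6 of the 10 members and lowered 1 (TAC-Veh against Sham-Veh, adjusted p under 0.05), against a background of 21.4% of all tested genes called higher and 23.6% called lower. Those that rose were Adamts1, Adamts2, Adamts4, Adamts8, Adamts10 and Adamts12, the one that fell was Adamts7, and Adamts5, Adamts9 and Adamts15 did not pass the test. The median log2 fold change of the members was 0.65, beside -0.0030 over all genes and -0.53 over the 6 other ADAMTS genes tested. The groups of libraries did not overlap for 4 of the 10 members (Adamts2, Adamts8 and Adamts10 above, Adamts7 below). That is near the 37.3% of all genes without overlap in either direction. With a minimum absolute log2 fold change of 1 added, 3 rose (Adamts2, Adamts4 and Adamts8) and Adamts7 fell, against 4.64% and 3.37% of all genes.

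THZ1 given after TAC lowered 4 members and raised 2 (TAC-THZ1 against TAC-Veh), where 14.2% of all genes were called lower and 15.1% higher. Adamts2, Adamts4, Adamts8 and Adamts12 fell, and Adamts7 and Adamts15 rose. All members that were called in both comparisons, Adamts2, Adamts4, Adamts7, Adamts8 and Adamts12, moved in opposite directions in them, but both comparisons share the TAC-Veh libraries, so the second is not independent of the first. The median log2 fold change was -0.54, beside 0.01 over all genes. Adamts2, Adamts8 and Adamts12 lay below and Adamts7 above the TAC-Veh range without overlap, that is 4 of 10 members, against 20.0% of all genes. With a minimum absolute log2 fold change of 0.89 added, 4 were lower and 1 was higher, against 3.62% and 1.85% of all genes.

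In sham hearts no member was called with THZ1 by limma fitted to all 16 libraries, and 0.0225% of all genes were called higher and 0.0450% lower. The only member with an unadjusted p under 0.05 was Adamts15, where 917 of 13331 genes had one. DESeq2 called Adamts15 higher and edgeR called no member. Over all genes DESeq2 called 13 higher and 20 lower, and edgeR 4 and 6. The main fit shares its estimate of the spread with the TAC libraries. Of 13331 genes, limma on only the 2 sham groups called 287 higher and 178 lower, and array weights called 254 and 259. Both of these fits called Adamts15 higher. Ranges of Sham-THZ1 and Sham-Veh did not overlap for 4 members, Adamts2, Adamts4, Adamts10 and Adamts15, all above, against 11.3% of all genes in either direction. The interaction, which tests whether the difference made by THZ1 was the same in TAC and sham hearts, was called negative for Adamts2, Adamts4, Adamts8 and Adamts12 and positive for Adamts7, where 5.62% of all genes were called negative and 4.40% positive.

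**Figure D2:**
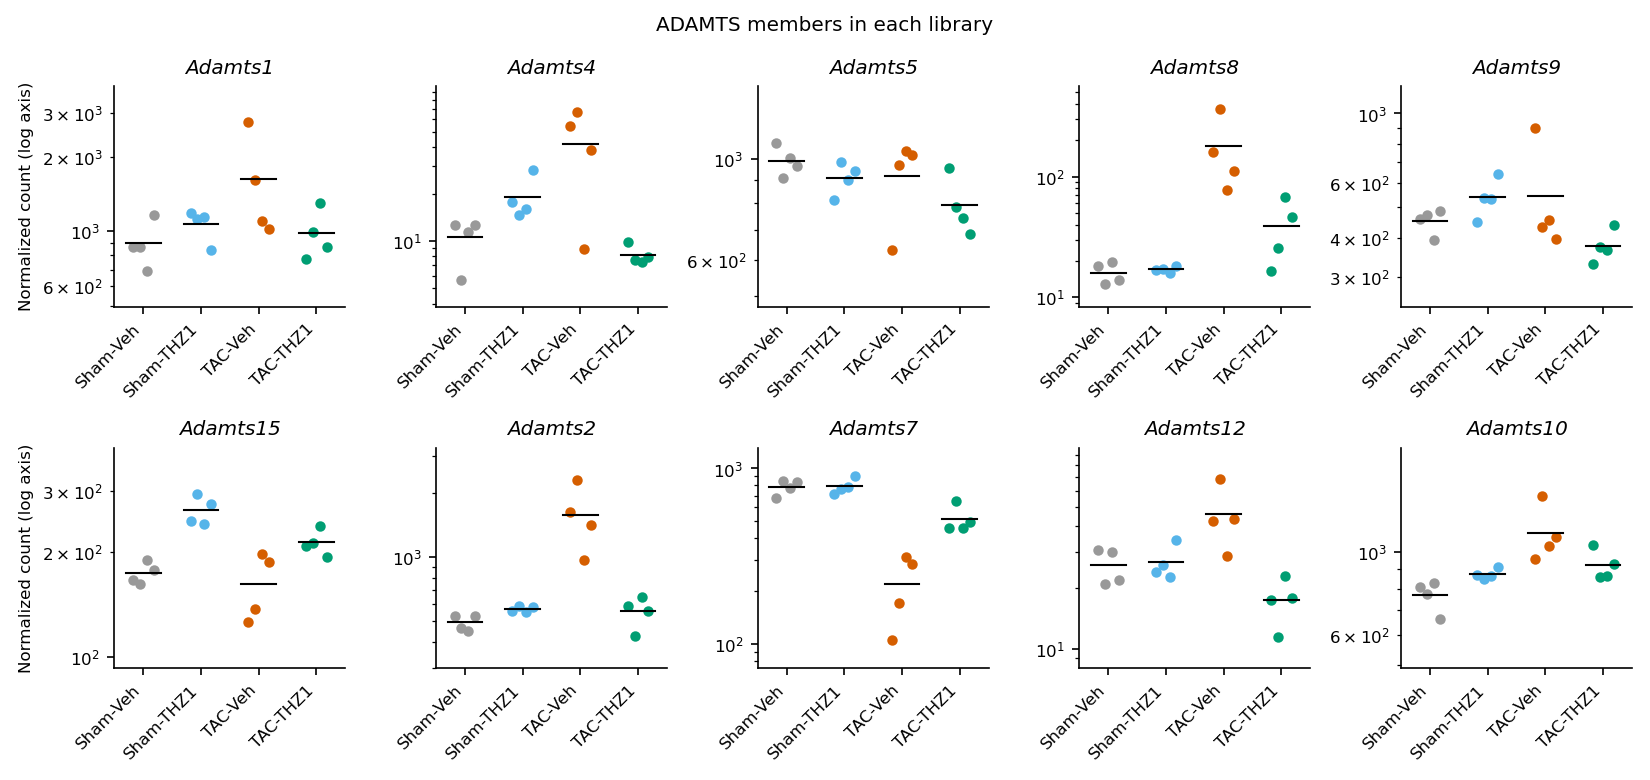
Normalized counts (log axis) of each member in the 4 libraries of each group, with the group mean as a line. TAC-Veh lies above the other groups for Adamts2 and Adamts8 and below them for Adamts7, and 1 TAC-Veh library of Adamts4 lies at the sham level.

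Among the proteoglycan-cutting members, Adamts8 had the largest fold change of the 10 with TAC. The gene lies on the plus strand at chr9:30750147-30771423 (NCBIM37), 20.1 kb from Adamts15 on the opposite strand. Its normalized counts were 18.03, 12.8, 19.5 and 13.8 in the 4 Sham-Veh libraries and 159, 367, 77.3 and 112 in TAC-Veh. Every TAC-Veh library was above every sham library. The log2 fold change was 3.17 ± 0.42 (SE), a fold of 8.98 on the scale of log2(normalized count + 1), with an adjusted p of 2.0e-05. With THZ1 after TAC the counts were 16.4, 25.5, 68.4 and 46.5, all below the TAC-Veh range, and 1 of them within the Sham-Veh range. Adamts8 thus fell by 2.104 ± 0.42 on the log2 scale (adjusted p = 0.0017). Sham-THZ1 stayed at 16.03 to 18.2. The interaction of -2.21 ± 0.59 was called at an adjusted p of 0.0281 and was lost without Sham-Veh replicate 2 (0.0614) or 4 (0.0539), Sham-THZ1 replicate 1 (0.0510), 2 (0.0525) or 4 (0.0545), or TAC-THZ1 replicate 2 (0.0613), and with edgeR (0.0617).

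Adamts15, its neighbour on chromosome 9 (minus strand, chr9:30706740-30730037), behaved otherwise. It had 167, 162, 190.1 and 177 normalized counts in Sham-Veh and 126, 137, 197 and 187 in TAC-Veh, ranges that overlapped. The log2 fold change with TAC was -0.13 ± 0.13 (adjusted p = 0.446). With THZ1 the mean count was higher on either background. Sham-THZ1 libraries held 246, 294, 240.4 and 275, all above Sham-Veh, a log2 fold change of 0.60 ± 0.13 with an unadjusted p of 0.00028 and an adjusted p of 0.204. A fit of only these 2 groups gave an adjusted p of 0.00409 and DESeq2 0.00862. In TAC-THZ1 the counts were 209, 213, 238 and 193, a range that overlapped TAC-Veh. The rise of 0.42 ± 0.13 passed the test (adjusted p = 0.0237), though not without TAC-Veh replicate 1 (0.0635) or 2 (0.0824) or TAC-THZ1 replicate 2 (0.0507) or 3 (0.0646), in a fit of only the 2 groups (0.115) or with array weights (0.169). The interaction was -0.18 ± 0.18 (adjusted p = 0.574), so a difference between the responses in sham and TAC hearts was not detected.

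Adamts4, an aggrecan- and versican-cutting protease (chr1:173180552-173190768, plus strand), was rare, with 7 to 13 reads in each Sham-Veh library. Normalized counts were 12.7, 5.61, 11.5 and 12.6 in Sham-Veh, and 54.1, 66.5, 8.92 and 38.3 in TAC-Veh. TAC-Veh replicate 3 thus lay within the Sham-Veh range and the other 3 libraries above it. The log2 fold change was 1.64 ± 0.46 (adjusted p = 0.00803). TAC-THZ1 held 9.83, 7.64, 7.32 and 7.92, close together and below 3 of the 4 TAC-Veh libraries, TAC-Veh replicate 3 lying among them. The difference was -1.93 ± 0.46 (adjusted p = 0.00524), and the interaction was -2.74 ± 0.64 (adjusted p = 0.0165). Sham-THZ1 libraries held 17.9, 14.7, 16.03 and 28.4, all above Sham-Veh, with a log2 fold change of 0.81 ± 0.46 that did not pass the test (adjusted p = 0.784).

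Adamts1, the founding member of the family (chr16:85794072-85803358, minus strand), was the most abundant per length in all 4 groups. Its normalized counts were 861, 865, 690 and 1168 in Sham-Veh and 2776, 1607, 1098 and 1024 in TAC-Veh. The groups overlapped, with TAC-Veh replicates 3 and 4 under the highest sham library. The rise of 0.76 ± 0.25 on the log2 scale passed the test (adjusted p = 0.0215). It fell to 0.47 without TAC-Veh replicate 1 (adjusted p = 0.0662), and the call was also lost without Sham-Veh replicate 3 (0.0703) or TAC-Veh replicate 2 (0.0501), and in a fit of only the 2 groups (0.0606). With THZ1 after TAC the counts were 774, 997, 1307 and 861, a log2 fold change of -0.63 ± 0.25 with an adjusted p of 0.0707. This was called without TAC-Veh replicate 3 (0.0320) or 4 (0.0242) or TAC-THZ1 replicate 3 (0.0395), and by edgeR (0.0457) and DESeq2 (0.0489), but was -0.33 without TAC-Veh replicate 1 (0.212).

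Adamts5 and Adamts9, the other proteoglycan-cutting members, did not pass the test in any of the comparisons. Adamts5, which lies 55.1 kb from Adamts1 on the same strand (chr16:85858415-85901370), had 912 to 1085 normalized counts in Sham-Veh and 634, 971, 1042 and 1024 in TAC-Veh. A single TAC-Veh library, replicate 1, was under the sham range. The difference TAC made was -0.14 ± 0.14 on the log2 scale (adjusted p = 0.427), and that of THZ1 in TAC was -0.19 ± 0.14 (0.300). Without TAC-Veh replicate 1 the first became 0.03 (adjusted p = 0.83) and the second became -0.36 and was called (0.0108). Adamts9 (chr6:92722693-92893486, minus strand) had 393 to 486 in Sham-Veh and 896, 433, 456 and 395 in TAC-Veh, where the same library stood far above the other 3. For TAC this gave a log2 fold change of 0.19 ± 0.19 (adjusted p = 0.451), and -0.08 without that library. With THZ1 after TAC Adamts9 had 329, 374, 365 and 440.4, a difference of -0.45 ± 0.19 (adjusted p = 0.0859) that DESeq2 called (0.0369), as did limma without TAC-Veh replicate 4 (0.0346). Without TAC-Veh replicate 1 it was -0.19 (0.234).

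Adamts2, the procollagen N-propeptidase (chr11:50415586-50621075, plus strand), gave the smallest adjusted p of the members in both main comparisons. Normalized counts were 530.4, 462, 451 and 527 in Sham-Veh and 1632, 2319, 968 and 1419.95 in TAC-Veh. Every TAC-Veh library was above every library of the other groups. The log2 fold change was 1.62 ± 0.19, a fold of 3.07 (adjusted p = 5.7e-06). In TAC-THZ1 the counts were 585, 424, 650.2 and 558, around the sham level, with a fall of 1.46 ± 0.19 on the log2 scale (adjusted p = 8.3e-05). The interaction was -1.67 ± 0.26 (adjusted p = 0.00225). Sham-THZ1 libraries held 549 to 589, all above Sham-Veh, with a log2 fold change of 0.21 ± 0.19 (adjusted p = 0.912). TAC-THZ1 and Sham-THZ1 differed by -0.05 ± 0.19 (adjusted p = 0.865), a difference that was 0.07 without TAC-THZ1 replicate 2. The calls of Adamts2 for TAC, THZ1 in TAC and the interaction held in every alternative fit.

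The COMP-cutting pair went in opposite directions. Adamts7 (chr9:90057816-90102909, plus strand) was the only member that fell with TAC. It had 676, 847, 775 and 838 normalized counts in Sham-Veh and 105, 169, 314 and 284 in TAC-Veh, so that the highest TAC-Veh library was under the lowest sham library. The log2 fold change was -1.96 ± 0.24 (adjusted p = 1.2e-05). With THZ1 after TAC it rose by 1.35 ± 0.24 (adjusted p = 0.00093) to 459.8, 648, 459.8 and 497, above TAC-Veh and below all 8 sham libraries. Sham-THZ1 had 717 to 910, and the log2 fold change there was 0.02 ± 0.24. The interaction was 1.34 ± 0.34 (adjusted p = 0.0243), lost without Sham-Veh replicate 2 (0.0532), Sham-THZ1 replicate 1 (0.0508) or TAC-THZ1 replicate 2 (0.0549). The gene overlaps Tbc1d2b on the other strand, as Adamts2 and Adamts9 overlap predicted genes, and the counting kept the strands apart.

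Adamts12 (chr15:10994545-11276622, plus strand) was rare, with 9 to 96 reads in a library. Normalized counts were 30.8, 20.9, 30.1 and 21.8 in Sham-Veh and 42.3, 68.6, 28.7 and 43.4 in TAC-Veh, where TAC-Veh replicate 3 lay within the sham range. The rise of 0.75 ± 0.26 on the log2 scale was called (adjusted p = 0.0252), but not without Sham-Veh replicate 2 (0.0748) or 4 (0.0684) or TAC-Veh replicate 2 (0.0980), or with array weights (0.0643). In TAC-THZ1 it had 17.5, 11.5, 22.8 and 17.8, all below TAC-Veh, and the fall of 1.32 ± 0.26 (adjusted p = 0.00161) was called in every alternative in which the gene was tested. Sham-THZ1 had 22.7 to 34.4. The interaction of -1.37 ± 0.36 (adjusted p = 0.0281) was lost without Sham-Veh replicate 2 (0.0641) or 4 (0.0563), Sham-THZ1 replicate 2 (0.0512) or 4 (0.0622), TAC-Veh replicate 2 (0.0553) or TAC-THZ1 replicate 2 (0.0600).

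Adamts10, the fibrillin-binding member (chr17:33661149-33690727, plus strand), showed a small rise with little spread. Its normalized counts were 808, 772, 828 and 662 in Sham-Veh and 957, 1411, 1041 and 1101 in TAC-Veh, with no overlap. That was a log2 fold change of 0.54 ± 0.10, a fold of 1.46 (adjusted p = 0.00050). TAC-THZ1 held 1043, 858, 865 and 930.2, overlapping TAC-Veh, and the difference of -0.28 ± 0.10 did not pass the test (adjusted p = 0.0541). It was called without Sham-Veh replicate 4 (0.0466), TAC-Veh replicate 1 (0.0161) or 3 (0.0439) or TAC-THZ1 replicate 1 (0.0327), and by edgeR (0.0458) and DESeq2 (0.0345), and was -0.16 without TAC-Veh replicate 2 (0.193). The interaction of -0.47 ± 0.15 had an adjusted p of 0.0512, which was 0.0216 without TAC-Veh replicate 1, 0.0328 without TAC-Veh replicate 3 and 0.0385 without TAC-THZ1 replicate 1. It was also called by DESeq2 (0.0274), with array weights (0.0245) and with a robust form of eBayes (0.0491). The highest adjusted p was 0.103, without TAC-THZ1 replicate 2.

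**Figure D3:**
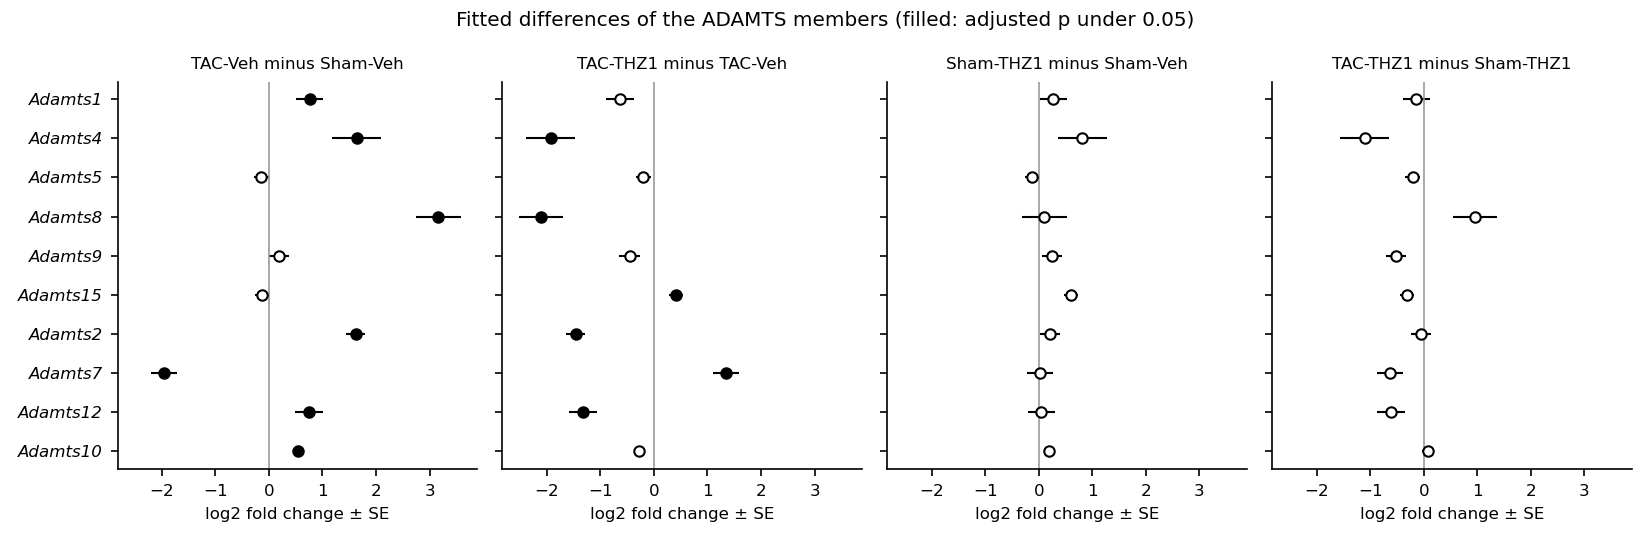
Log2 fold change ± SE of each member in 4 comparisons of 4 against 4 libraries, with filled points for an adjusted p under 0.05. Filled points are seen for 7 members with TAC, for 6 with THZ1 in TAC and for none in the other comparisons.

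Between TAC-THZ1 and Sham-THZ1, the comparison that gives what pressure overload left under the inhibitor, no member was called by limma, against 11.4% of all genes called higher and 12.8% lower. Several members still had sizeable differences. On the log2 scale Adamts4 was -1.10 ± 0.46 (adjusted p = 0.0868), Adamts8 0.96 ± 0.42 (0.102), Adamts7 -0.63 ± 0.24 (0.0694), Adamts12 -0.61 ± 0.26 (0.0926), Adamts9 -0.51 ± 0.19 (0.0612) and Adamts15 -0.31 ± 0.13 (0.0949), all with an unadjusted p under 0.05. An unadjusted p under 0.05 was common in this comparison, with 5059 of 13331 genes. TAC-THZ1 lay below Sham-THZ1 without overlap for 4 of the 10 members, Adamts4, Adamts7, Adamts9 and Adamts15, and above it for none. That is near the 33.4% of all genes without overlap in either direction. Calls depended on the fit. A fit of only these 2 groups called 4 members lower, Adamts4 (0.0104), Adamts7 (0.00201), Adamts9 (0.00585) and Adamts15 (0.0278). The same fit called 2357 of 13331 genes lower, where the main fit called 1706. Adamts7 was also called by edgeR (0.0462) and DESeq2 (0.0283), and without TAC-Veh replicate 1 (0.00803) or 3 (0.0402) or TAC-THZ1 replicate 2 (0.0478). DESeq2 also called Adamts9 lower (0.0466) and Adamts8 higher (0.0382).

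Leaving out a library called further members in this comparison. Adamts4 was lower without TAC-Veh replicate 3 (0.0117), Adamts9 without TAC-Veh replicate 1 (0.00252) or 4 (0.0459), and Adamts15 without TAC-Veh replicate 1 (0.0458). Adamts8 was higher without TAC-Veh replicate 2 (0.0484) or TAC-THZ1 replicate 1 (0.0431), and its difference was 0.63 without TAC-THZ1 replicate 3 (0.294). TAC-Veh libraries enter this comparison only through the shared estimate of the spread.

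Within TAC-Veh the 4 libraries differed in a way that several members had in common. Replicate 2 was the highest of the 4 for Adamts2, Adamts4, Adamts8, Adamts10 and Adamts12, and replicate 3 the lowest for Adamts2, Adamts4, Adamts8 and Adamts12. Replicate 1 was the lowest for Adamts5, Adamts7, Adamts10 and Adamts15 and the highest for Adamts1 and Adamts9. The summed markers of activated fibroblasts were 77184, 104441, 32270 and 39733 in replicates 1 to 4, and those of cardiomyocytes 842109, 591154, 876249 and 848803. Replicate 2, the highest for 5 of the 6 members that rose, also had the highest activated fibroblast and the lowest cardiomyocyte level, and whether this had a part in the calls was not tested.

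By the mean absolute difference over the 16 libraries of log2 values centred on the Sham-Veh mean, the genes most like Adamts2 were Loxl1, a lysyl oxidase that cross-links elastin fibres (0.115), and Fbln2, a fibulin (0.124). Loxl1 had 3072 ± 840 (SD, n = 4) normalized counts in TAC-Veh, 938 ± 95.9 in Sham-Veh and 1164 ± 243 in TAC-THZ1. Nearest to Adamts7 were Kcnj5, a potassium channel subunit (0.107), and Plxnb1, a semaphorin receptor (0.117). Kcnj5 fell from 2021 ± 106 in Sham-Veh to 611 ± 229 in TAC-Veh and was 1363 ± 206 in TAC-THZ1. For Adamts12 they were the collagen VI chains Col6a2 (0.182) and Col6a1 (0.193), and for Adamts8 the Wnt antagonists Nkd2 (0.294) and Frzb (0.324). Nearest to Adamts4 were Eln, which encodes elastin (0.265), and Arntl, a transcription factor of the circadian clock (0.438). Eln was at 941 ± 568 in TAC-Veh, 211 ± 23.3 in TAC-THZ1, 401 ± 103 in Sham-THZ1 and 263 ± 46.9 in Sham-Veh.

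Of the other 9 ADAMTS genes looked at, 6 were tested. With TAC, 2 rose (Adamts6 and Adamts20) and 3 fell (Adamts3, Adamts14 and Adamts17), against 21.4% and 23.6% of all genes, and the median log2 fold change was -0.53, beside -0.0030 over all genes. Adamts20, a versican-cutting relative of Adamts9, went from 7.43, 9.63, 10.6 and 6.89 (Sham-Veh, normalized counts) to 22.3, 88.7, 38.6 and 46.0 in TAC-Veh, a log2 fold change of 2.22 ± 0.37 (adjusted p = 0.00016). No library of one group was in the range of the other. Adamts20 passed the filter only through TAC-Veh, the group where it was high, so its calls are not independent of that level. In TAC-THZ1 it had 6.55 to 17.8 and fell by 1.94 ± 0.37 on the log2 scale (adjusted p = 0.00135). Adamts6, the closest relative of Adamts10, rose by 0.86 ± 0.23 on the log2 scale (adjusted p = 0.00567) and fell with THZ1 by 0.84 ± 0.23 (0.0116). Against the rise of Adamts2, the other procollagen N-propeptidases were lower with TAC, Adamts3 by a log2 fold change of -0.80 ± 0.19 (adjusted p = 0.00340) and Adamts14 of -0.85 ± 0.24 (0.00948). Adamts17 had -1.09 ± 0.33 on this scale (0.0127). Adamts16 was too low to be tested, with 0 reads in all 8 sham libraries, 29 reads over the 4 TAC-Veh libraries and 2 over TAC-THZ1.

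Substrates of the members were looked at next. Of 4 tested genes for hyaluronan, its proteoglycans and its receptor, 2 rose with TAC and the same 2 fell with THZ1, against 21.4% and 14.2% of all genes. Vcan, which encodes versican, the main proteoglycan substrate in the heart, had 430 to 700.1 normalized counts in Sham-Veh and 2019, 2909, 1271 and 2004 in TAC-Veh, a log2 fold change of 1.87 ± 0.22 (adjusted p = 6.3e-06). In TAC-THZ1 it had 453, 440.5, 784 and 644, a difference of -1.80 ± 0.22 (adjusted p = 6.1e-05). Cd44, the hyaluronan receptor, rose by 1.06 ± 0.15 and fell by 0.87 ± 0.15 on the log2 scale. Aggrecan, brevican and neurocan genes and the 4 link protein genes did not reach the filter.

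Among 10 tested genes of fibrillar procollagens and their processing, the substrates and partners of Adamts2, 8 rose with TAC and 8 fell with THZ1 in TAC, against 21.4% and 14.2% of all genes, with medians of 1.07 and -1.15 on the log2 scale beside -0.0030 and 0.015. Col5a2 had 2541 to 9147 normalized counts in TAC-Veh against 901 to 1152 in Sham-Veh and 769 to 1086 in TAC-THZ1, with log2 fold changes of 2.19 ± 0.26 and -2.28 ± 0.26. Col3a1 rose by 1.59 ± 0.24 and fell by 2.01 ± 0.24 on that scale. Of 12 other substrates and cofactors, 7 rose and 1 fell with TAC and 8 fell with THZ1, where the shares of all genes were 21.4%, 23.6% and 14.2%. Comp, the substrate of Adamts7 and Adamts12, went from 57.3, 65.0, 40.7 and 55.1 (Sham-Veh, normalized counts) to 3897, 4338, 1153 and 1936 in TAC-Veh, a log2 fold change of 5.501 ± 0.38 (adjusted p = 6.9e-08). In TAC-THZ1 Comp had 364, 106, 267 and 263. It fell by 3.44 ± 0.38 on the log2 scale but was still above all sham libraries. Thbs1, another substrate of the family, rose by 2.92 ± 0.38 and fell by 2.65 ± 0.38, and its relative Thbs2 fell with TAC, by 0.73 ± 0.15, all on the log2 scale.

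Of the 8 genes for inhibitors and clearance, 4 rose and 1 fell with TAC, and 4 fell with THZ1, beside the same 21.4%, 23.6% and 14.2% of all genes. Timp1 had 387 to 2142 normalized counts in TAC-Veh against 20.1 to 71.6 in Sham-Veh and 108 to 298 in TAC-THZ1, with log2 fold changes of 4.11 ± 0.47 and -2.19 ± 0.47. Timp3, the main tissue inhibitor of ADAMTS proteases, rose by 0.48 ± 0.17 on the log2 scale (adjusted p = 0.0340) and fell with THZ1 by 0.69 ± 0.17 (0.00794). Lrp1, the endocytic receptor that clears them, rose by 0.52 ± 0.19 (adjusted p = 0.0354) and fell by 0.79 ± 0.19 (0.00611) on that scale. Lrp1b, its relative, was lower with TAC by a log2 fold change of -1.16 ± 0.35, at fewer than 20 normalized counts in every library, and A2m, at 0 in 2 Sham-Veh libraries, did not pass either test. Of 5 convertases tested, Pcsk5 rose by 1.05 ± 0.16 on the log2 scale (adjusted p = 8.7e-05) and fell with THZ1 by 0.91 ± 0.16. Furin and Pcsk4 fell with TAC, by 0.30 ± 0.08 and 0.65 ± 0.23 on that scale, and did not pass the test with THZ1 (log2 fold changes of 0.05 and 0.17).

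ADAMTS-like proteins carry the ancillary domains without the protease, and 6 of them were tested. Adamtsl2, which binds fibrillin microfibrils, had 254 to 364 normalized counts in sham hearts on vehicle and 2792, 1958, 1462 and 1762 in TAC-Veh, a rise of 2.76 ± 0.21 on the log2 scale, and fell with THZ1 by 2.18 ± 0.21 to 406, 407, 318 and 627. Adamtsl4 went the other way, with log2 fold changes of -0.69 ± 0.10 with TAC and 0.44 ± 0.10 with THZ1 in TAC. Papln fell with THZ1 by 0.78 ± 0.22 on the log2 scale, and its log2 fold change with TAC was -0.19 ± 0.22 (adjusted p = 0.501). None of the genes in these lists was called in sham hearts with THZ1 by limma fitted to all 16 libraries.

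**Figure D4:**
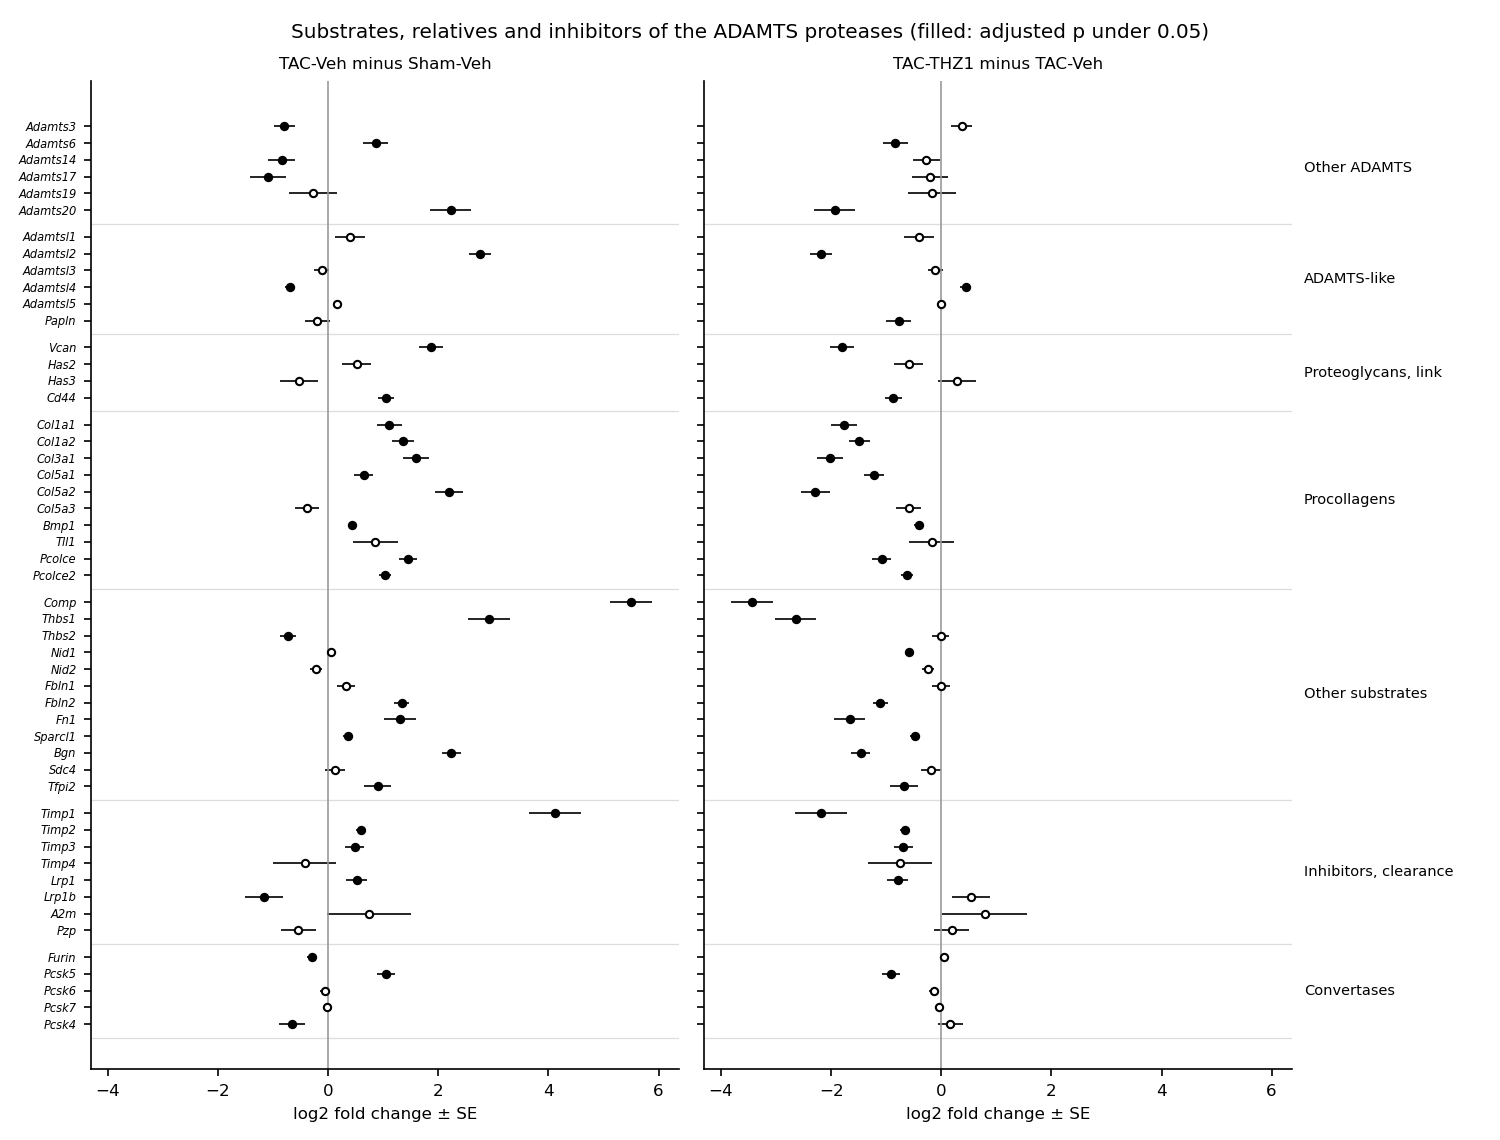
Log2 fold change ± SE of the other ADAMTS genes, ADAMTS-like genes, substrates, inhibitors and convertases with TAC and with THZ1 in TAC (4 against 4 libraries), with filled points for an adjusted p under 0.05. Most procollagens lie right of 0 with TAC and left of 0 with THZ1, and Comp lies farthest from 0 in both panels.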

How the data were processed

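Poly(A) RNA of ventricle pieces from 16 mice was sequenced with a stranded kit, per the labels. The authors aligned the reads to mm9 with TopHat 2.1.1, obtained a count for every GENCODE gene from htseq-count (reverse strand setting), and divided the counts by DESeq2 size factors (0.749 to 1.40). The deposited signal is this normalized count. Dividing by the step of each library gave whole reads (within 0.01) for 100% of values, and totals of 21.4 to 35.8 M reads. All 22372 identifiers matched the GENCODE annotation on NCBIM37, which gave symbols, positions and exon lengths.

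The main test was that of limma 3.58.1 (R 4.3.3). Its input was log2(normalized count + 1) of the 16 libraries, and the fit held a mean for each group, eBayes with a variance trend, and Benjamini-Hochberg adjustment over 13331 genes with at least 10 normalized counts in at least 4 libraries, within each of 5 comparisons. On simulated counts for TAC with 200 changed genes among 13331, limma, edgeR and DESeq2 each recovered 100% of them, and 4.76%, 4.31% and 10.3% of their calls were false. The simulation gave all genes and groups the same dispersion and changed only genes with a mean of at least 50. The real TAC-Veh libraries spread more than the sham libraries, and Adamts4 and Adamts12 had means of 20.0 and 28.9. These rates are therefore not the error rates of the calls given here. Alternatives used edgeR 4.0.16 and DESeq2 1.42.0 on the recovered reads, other scalings, filters and pseudocounts, fewer samples, array weights, a replicate block, stricter thresholds and each library left out. Figures and summaries used Python 3.11.15. The fold thresholds of 1 and 0.89 are those of the study's methods. The study used the first for genes higher with TAC and the second for genes lower with THZ1. It set 0.89 on these same libraries so that Nppb was kept. Here both were applied in either direction.

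Text names the 10 members, the genes nearest to members called in both main comparisons (among genes with a mean of at least 50), and of each partner list the 2 with the largest change in each main comparison. Adamts3, Adamts14, Furin, Timp3, Lrp1, Thbs2 and Adamts16 were named after their values were seen. The members and lists were chosen with earlier results of these data known. Replicates were different mice, and the labels gave no batch.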

Additional observations from a re-analysis of the deposited data

Results flagged for a closer look

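In TAC-Veh, the Adamts9 count of replicate 1 (896 normalized counts) stood far from the other 3 libraries (395 to 456), with a gap of 0.879 of the whole range, above Dixon's 95% critical value for 4 samples. This was the only one of 40 member-by-group sets flagged so, and chance flags about 1 in 20. The same library held the highest Adamts1 and the lowest Adamts5, Adamts7, Adamts10 and Adamts15 of its group.

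The difference made by THZ1 was called unlike in TAC and sham hearts for 5 members by the interaction term of the main limma fit. At the same threshold this call was lost in 3 alternative fits for Adamts7 and in 7 each for Adamts8 and Adamts12. On the log2 scale it was -1.67 for Adamts2, -2.74 for Adamts4, -2.21 for Adamts8, -1.37 for Adamts12 and 1.34 for Adamts7. In sham hearts the log2 fold changes of these genes with THZ1 were 0.21, 0.81, 0.10, 0.05 and 0.02.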

How the results depend on the processing

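Of the log2 fold changes of the 10 members in 5 comparisons, 1430 of the values under alternatives kept direction and call, 42 lost the call, 47 gained it and 11 changed sign. Leaving out 1 library gave 4 to 6 members higher and 1 lower with TAC, 1 to 2 higher and 4 to 6 lower with THZ1 in TAC, 0 to 1 higher and 0 to 3 lower for TAC under THZ1, and 0 to 1 positive and 2 to 5 negative interactions. With the fold thresholds, 3 were higher with TAC and 1 with THZ1 in TAC. A mean of at least 50, which removes Adamts4 and Adamts12 from the test, left 2 lower with THZ1 in TAC and 2 negative interactions. An adjusted p under 0.01 left 1 higher with THZ1 in TAC, 0 positive and 1 negative interaction. At that threshold Adamts1 and Adamts12 were no longer called higher with TAC. Only the 2 groups compared gave 1 higher with THZ1 in TAC, 1 higher in sham and 4 lower for TAC under THZ1, and array weights gave 1, 1 and 5, with 1 higher for TAC under THZ1. DESeq2 called 7 lower with THZ1 in TAC, 1 higher in sham, and 1 higher and 2 lower for TAC under THZ1, where edgeR called 1 lower. Calls over the 13331 genes moved as well. For TAC under THZ1 the main fit called 1706 lower and only the 2 groups 2357. Array weights called 2632 lower there, DESeq2 1866 and edgeR 1637. Higher there were 1514 in the main fit, 2379 with array weights and 1725 with DESeq2. With THZ1 in TAC, DESeq2 called 2089 genes lower and the main fit 1899. The cause of these shifts was not tested.

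Signs changed only for values near 0 that were not called, and mostly where 1 library was left out. Over those fits Adamts5 ran from -0.21 to 0.0301 and Adamts9 from -0.0790 to 0.31 with TAC, Adamts7 from -0.0534 to 0.0624 and Adamts12 from -0.0760 to 0.14 with THZ1 in sham, Adamts2 from -0.13 to 0.0712 for TAC under THZ1, and the Adamts5 interaction from -0.24 to 0.00200. In sham Adamts7 was -0.000401 with quantile normalization and -0.00831 with array weights.

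Deviations of libraries with the same replicate number correlated at -0.43 to 0.16 over 24 pairs, with a median of 0.021. Libraries of different groups and numbers correlated at -0.23 to 0.31, with a median of 0.00055. In 0 of 16 libraries was its own number the best match in every other group at once. That count cannot decide on pairing, because few libraries would meet it without pairing. As a replicate block the number called Adamts7 lower for TAC under THZ1 (1 member, adjusted p = 0.0490) and lost the Adamts12 interaction (0.0507), with no other call of a member changed. Nearest genes by z scores kept 3 of 10, and levels not divided by length kept 7 of 10 members in place in Sham-Veh. Counting limits Adamts4, Adamts8 and Adamts12, which had 6 to 28, 12 to 84 and 9 to 34 reads per library outside TAC-Veh.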
